A study of Schizosaccharomyces pombe with 12 samples.

Results

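The growing h- wild type of this fission yeast series is a group of 3 messenger RNA libraries, labelled wt_WT replicates 1, 2 and 3. They were chosen by their label from 12 libraries in 4 groups, and each reports 6936 genes. The cells are Schizosaccharomyces pombe of mating type h- with the genotype leu1-32 ura4-D18 ade6-704, and the labels give the strain name SPB4507, which they also give to the h+ wild type of the series. The labels describe exponential growth at 30 °C in YES, a rich yeast extract medium. RNA was extracted with the MasterPure Yeast kit, and 300 ng of it entered the Illumina Stranded mRNA Prep, which selects polyadenylated RNA. The profile below describes these 3 libraries alone, with no other group beside them and with no test between groups.

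Fission yeast in rich medium with glucose ferments, and most of its protein synthesis serves the making of new cytoplasm. In fast-growing yeasts the messages for ribosomal proteins, translation factors and glycolytic enzymes are known to be abundant, because their proteins are needed in very large numbers. Genes for mating, meiosis and starvation are known to be kept low until nitrogen or glucose runs out. An abundance profile shows how far each of these programmes occupies the pool of polyadenylated RNA.

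Levels are given as TPM, the authors' length-corrected unit, which counts the transcripts of a gene per 1000000 transcripts of its library. A share of the pool is a share of that sum. Because TPM is corrected for length, levels of different genes can be compared within a library as far as the lengths used hold. Those need not be the annotated lengths given below. Of 2 ribosomal protein genes, named after their values were seen, rps3002 had 3129 TPM on 12017 counts and rpl39 2068 TPM on 19230 counts. Their annotated transcripts have 320 and 318 bases. The libraries held 11308010, 11422370 and 11782294 estimated counts, and ribosomal RNA took 0.371%, 0.699% and 0.419% of them in replicates 1, 2 and 3. The 3 libraries were distinct, since the chi-square per degree of freedom between pairs was 3.69 to 5.03, above sampling noise. Nothing in the labels says whether they came from separate cultures, so every SD below measures the spread between these libraries, which may be technical. In such RNA from a whole culture, more cells expressing a gene and more RNA per cell cannot be told apart.

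The most abundant message was gpm1, which encodes the glycolytic phosphoglycerate mutase, with 8345, 8640.5 and 8371 TPM in replicates 1, 2 and 3. Next came fba1, the aldolase that splits the sugar in glycolysis, with 7611, 7631 and 7634 TPM. The third was tdh1, glyceraldehyde-3-phosphate dehydrogenase, with 6051, 6985 and 7067 TPM. These 3 glycolytic genes kept their order in each library, and their ranges did not overlap. They were followed by the ribosomal protein genes rps7 at 5771 ± 139 TPM, rps13 at 5703 ± 105 TPM and rpl29 at 5445 ± 206 TPM (mean ± SD, n = 3 replicates).

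The rest of the 10 highest genes were tef103, a gene for the elongation factor EF-1 alpha that brings aminoacyl-tRNA to the ribosome, at 5334 ± 206 TPM, and 3 further ribosomal protein genes. These were cpc2, whose product RACK1 sits on the small subunit, at 5010.0 ± 120.2 TPM, rpl35 at 4959 ± 119 TPM and rpl3401 at 4902 ± 318 TPM. The 30 highest genes held 22 ribosomal protein genes, 6 glycolytic genes, 1 translation factor gene and 1 non-coding gene, prl53. The genes from the 12th to the 30th place ran from 4576 to 3775 TPM. Order within that list was loose: in 26 of 30 steps from one gene to the next, the replicate values of the neighbours overlapped.

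The pool was concentrated in few genes. The 10 highest genes held 5.99% of all TPM, the 100 highest held 34.5% and the 1000 highest held 78.8%. Replicates differed little in this: the 100 highest genes of each library held 34.1, 34.8 and 34.5%. Counted from the top, 188 genes reached 50% of the pool, 2153 reached 90% and 4659 reached 99%. The median protein-coding gene stood at 50.7 TPM, with the middle 50% of genes between 24.9 and 115 TPM. Among the 100 highest genes, 80 encoded ribosomal proteins, and by the 500th gene 142 of all 143 had appeared.

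**Figure D1:**
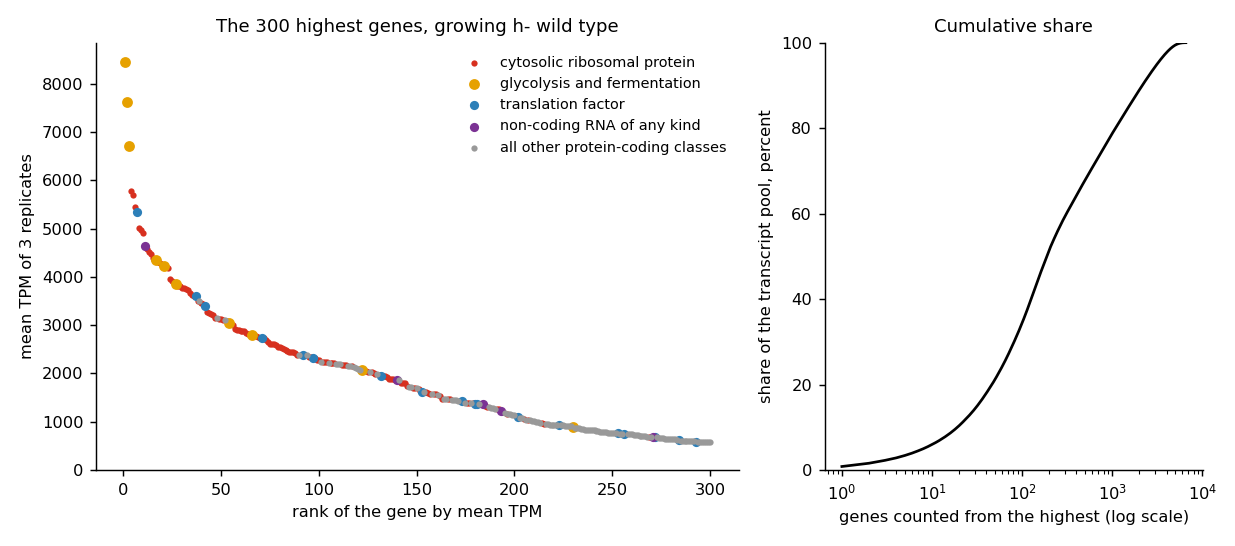
Left, mean TPM of the 300 highest genes against their rank, coloured by class, where each point is a gene. Right, the cumulative share of the transcript pool against the number of genes counted from the highest, on a log axis. Glycolytic genes hold the first 3 places, ribosomal protein genes fill most of the first 100, and 188 genes reach 50% of the pool.

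Genes were sorted into 26 classes by symbol and annotated product, each gene in a single class. Cytosolic ribosomal protein genes, which encode the structural proteins of the ribosome, were 143 genes, or 2.06% of the table. They held 36.2, 36.8 and 36.6% of the pool in replicates 1, 2 and 3. Glycolysis and fermentation, with 19 genes, held 4.37, 4.63 and 4.64%. Translation factors, with 57 genes, held 4.13, 4.18 and 4.15%. Together, ribosomal proteins, translation factors and the ligases that load tRNA made up 41.3 ± 0.293% of all transcripts (SD, n = 3) with 236 genes.

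These shares count molecules, not mass. Ribosomal protein messages are short, and by estimated counts, which also grow with transcript length, the class held 18.0%. Glycolysis and fermentation held 7.23% by counts and translation factors 6.01%. These 3 classes keep their order on both scales, and ribosomal proteins stand closer to the others by counts.

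**Figure D2:**
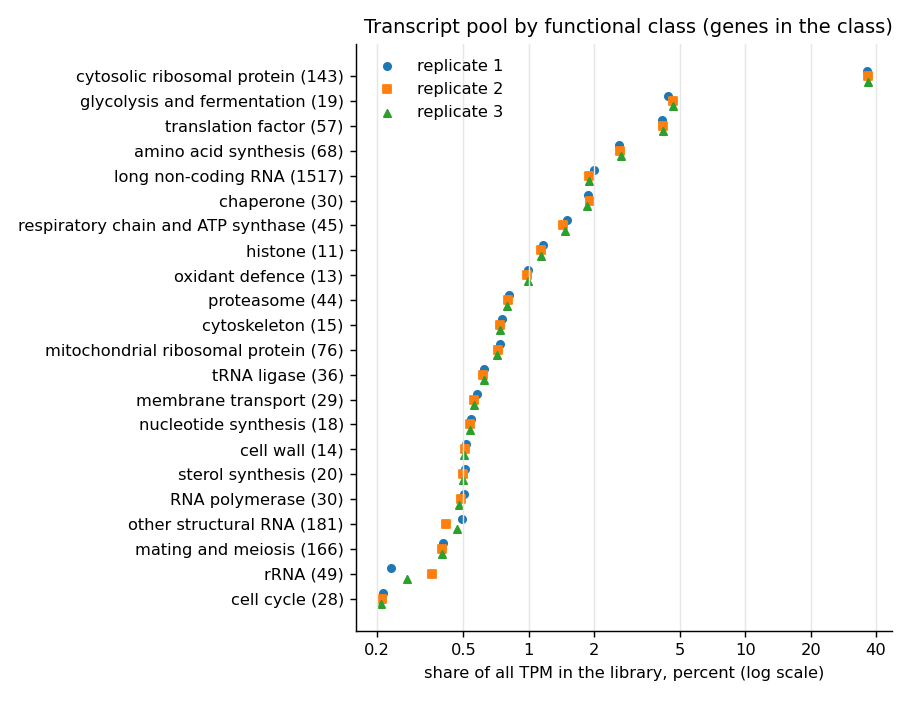
Share of all TPM held by each functional class in percent, on a log axis, with a marker for each replicate and the number of genes in parentheses. Pseudogenes, retrotransposons with wtf genes, mitochondrially encoded genes and protein-coding genes of no class are not drawn. Ribosomal protein genes stand at 36.2% to 36.8%, and rRNA is the class whose replicates lie relatively farthest apart.

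Within the ribosomal proteins, levels ran from rps7 at 5771 TPM to rpl1603, 1 of 3 genes for the large-subunit protein uL13, at 64.9 TPM. The rpl1603 gene was low in every library, with 66.7, 63.2 and 64.7 TPM, while its copies rpl1602 and rpl1601 stood at 2836 and 1813 TPM. Its annotated transcript has 2640 bases, beside 743 and 687 in these copies. By counts the gap was smaller, with 4904 in all for rpl1603 beside 54044 and 30767. The next lowest genes of the class were members of pairs, rpl3002 at 448 TPM and rpl3402 at 534 TPM. The median of the class was 2418 TPM, and 136 of its 143 genes reached 1000 TPM.

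Fission yeast encodes most ribosomal proteins by several near-identical genes. Grouped by symbol, the 143 genes gave 80 proteins, of which 22 had a single gene, 53 had 2 and 5 had 3. Single genes had a median of 3809.8 TPM. Members of pairs had a median of 2330.5 TPM each, and their pairs summed to a median of 4513 TPM. The coefficient of variation (CV, the SD as a percent of the mean) across the 143 genes was 43.7%, and across the 80 summed proteins it was 24.8%. The lowest summed level was that of rpp0, the stalk base protein, at 1879.7 TPM. Reads of near-identical copies can be divided between them by the counting program, so the level of 1 copy is less certain than the sum.

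The higher copy of a pair exceeded the lower by a median of 1.63-fold, and in 19 of 53 pairs by more than 2-fold. The most uneven pair was rpl3401, with 4559, 4958 and 5188 TPM, beside rpl3402, with 569, 526 and 508 TPM. The rpl30 pair came next, with rpl3002 7.2-fold below its partner. Small-subunit genes held 15.6% of the pool with 58 genes, and large-subunit genes held 20.9% with 85 genes. Their medians per gene were 2617 and 2345 TPM.

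Ribosomal protein promoters of fission yeast are known for the HomolD box, which takes the place of a TATA box, and for the HomolE box often found with it. The windows searched ran from 250 bases before to 50 after the annotated start of each of 5097 protein-coding genes in RefSeq assembly ASM294v3, while the submitters' processing notes name ASM294v2. The letters CAGTCACA of HomolD were sought on both strands, as were ACCCTACCCT for HomolE and TATAAA for a TATA box. HomolD was present in 91 of 143 ribosomal protein promoters, or 63.6%, against 2.69% of all promoters. HomolE was present in 41, or 28.7%, against 1.26%. TATAAA was present in 27.3%, against 48.2%. HomolD matches overlapped no match of the other motifs, and matches of HomolE and TATAAA overlapped in 2 promoters.

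The following stretches show the box in the 3 highest and the 3 lowest ribosomal protein genes that have it before the start. Each is read on the strand of the gene from ASM294v3, with the 8 letters of HomolD, or of its reverse complement, in capitals and 26 bases on each side. In ASM294v3 they lie upstream of their genes, outside the annotated transcript, at I:2242546-2242605 for rps7 (minus), I:2439435-2439494 for cpc2 (plus), III:89606-89665 for rpl35 (minus), II:2143043-2143102 for rpl401 (plus), II:3060466-3060525 for rpl102 (plus) and I:5095901-5095960 for rpl3002 (minus), with the strand of the gene in parentheses.
rps7: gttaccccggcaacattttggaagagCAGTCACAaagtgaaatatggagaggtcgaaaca
cpc2: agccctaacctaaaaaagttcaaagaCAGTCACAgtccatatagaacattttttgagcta
rpl35: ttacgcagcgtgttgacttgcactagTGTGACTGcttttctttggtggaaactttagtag
rpl401: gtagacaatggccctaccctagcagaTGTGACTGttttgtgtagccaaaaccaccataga
rpl102: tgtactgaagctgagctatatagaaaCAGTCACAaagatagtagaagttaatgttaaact
rpl3002: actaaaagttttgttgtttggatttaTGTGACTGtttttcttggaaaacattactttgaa
Counted from the annotated start, the box begins at a median position of -51, with the middle 50% of the 91 genes between -57 and -47. It reads on the strand of the gene in 61 genes and on the opposite strand in 30. The printed genes span 5771 to 448 TPM with the same 8 letters. Genes with the box had a median of 2499 TPM and ran from 448 to 5771 TPM. The 52 genes without these exact letters had a median of 2199.8 TPM and ran from 64.9 to 5703 TPM, so the ranges overlapped almost fully. A match is a description of the letters in this window and says nothing of binding.

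Outside the ribosomal proteins, 11 of 70 genes at 1000 TPM or more had HomolD in the window, or 15.7%. All 11 are named here after their values were seen. They were the EF-1 alpha genes tef101, tef102 and tef103, a further elongation factor gene, tef3, the initiation factor gene tif1 for eIF4A, and tma19, for the translationally controlled tumour protein. They also included btf3, a subunit of the complex that meets nascent chains, sks2, a chaperone bound to ribosomes, the glycolytic gene tpi1, and the amino acid genes ilv5 and sam1.

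The glycolytic pathway was uneven along its length. The 2 hexokinase genes, which phosphorylate glucose, were modest, with hxk2 at 473, 479 and 479 TPM and hxk1 at 191, 191 and 191 TPM. The isomerase gene pgi1 had 872, 909 and 925 TPM, and pfk1, for the committing phosphofructokinase, had 445, 460.5 and 486 TPM. From aldolase onward the highest gene of every step averaged above 2000 TPM, which no gene of the earlier steps reached.

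After fba1, the triosephosphate isomerase gene tpi1 had 4085, 4271 and 4347 TPM. The phosphoglycerate kinase gene pgk1 had 3654, 3958 and 3946 TPM. The enolase gene eno101 had 4056, 4477 and 4487 TPM, and the pyruvate kinase gene pyk1 had 2749, 2812 and 2812 TPM. At the fermentation step, pdc101 for pyruvate decarboxylase had 2906, 3069 and 3128 TPM and adh1 for alcohol dehydrogenase had 1962, 2096 and 2152 TPM. By counts adh1, with 262177 in all, stood above pgk1, with 247157, although their annotated transcripts are of similar length, 1598 and 1641 bases. The lower TPM of adh1 thus depends on the length used for it. Replicate 1 was the lowest library for 15 of the 18 genes of this class with a mean of at least 10 counts. By the same filter it was the lowest for 70 of 143 ribosomal protein genes and 1144 of 4088 protein-coding genes of no class.

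At the later steps a single gene dominated where several exist. The enolase copy eno102 had 2.8 TPM, against 4340.2 TPM for eno101. The decarboxylase genes pdc202, pdc201 and pdc102 had 5.35, 2.63 and 0.162 TPM, the last of them on 10 counts in all. The dehydrogenase copy gpd3 had 147 TPM beside tdh1 at 6701 TPM, and the mitochondrial alcohol dehydrogenase gene adh4 had 171 TPM.

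TATAAA was in the window of 9 of 19 genes of this class on either strand, or 47.4%, against 48.2% of all promoters. Counted only on the strand of the gene and before its start, it was found in 8 of 19, or 42.1%, against 27.8%. The 4 highest of these 8 are shown, read on the strand of the gene from ASM294v3, with TATAAA in capitals. In ASM294v3 they lie at I:5174655-5174712 for gpm1 (minus), II:2807531-2807588 for tdh1 (plus), II:4159470-4159527 for pgk1 (minus) and III:1591225-1591282 for adh1 (plus), with the strand of the gene in parentheses.
gpm1: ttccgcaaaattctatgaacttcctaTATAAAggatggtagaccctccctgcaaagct
tdh1: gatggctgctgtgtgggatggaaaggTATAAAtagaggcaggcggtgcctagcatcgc
pgk1: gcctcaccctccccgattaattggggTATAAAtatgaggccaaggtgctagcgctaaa
adh1: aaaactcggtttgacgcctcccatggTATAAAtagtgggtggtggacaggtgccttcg
In these 4 genes the letters begin 32 to 41 bases before the annotated start. Both boxes lie close to the start, HomolD in the ribosomal protein genes above and TATAAA in these.

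Translation factors also ran over a wide range. The 3 genes for EF-1 alpha, tef103, tef101 and tef102, summed to 10082, 10933 and 11061 TPM, and their coding sequences are so alike that the split between them is uncertain. The eIF5A gene tif512, whose product helps the ribosome past stalling stretches, had 3605 ± 77.1 TPM. At the other end, the mitochondrial elongation factor gene mef2 had 15.1 ± 0.809 TPM. The tRNA ligase class held 0.62 ± 0.005% of the pool, led by asc1, a cofactor of methionyl and glutamyl ligases, at 499.9 TPM, and by nrs1 and krs1, which load asparagine and lysine, at 451 and 378 TPM. The mitochondrial asparagine ligase gene slm5 was its lowest member, at 12.4 TPM.

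Messages for mitochondrial ribosomal proteins stood far below those for cytosolic ones. The 76 mitochondrial ribosomal protein genes held 0.726 ± 0.0122% of the pool with a median of 92.4 TPM, led by tam9 at 274 ± 28.6 TPM, mrpl32 at 234 TPM and mrpl15 at 204 TPM. Nuclear genes of the respiratory chain and ATP synthase held 1.47 ± 0.0319% with 45 genes. Cytochrome c, encoded by cyc1, led that class with 985, 971 and 955 TPM, ahead of cox7 at 931 ± 127 TPM and the ATP synthase subunit gene atp2 at 804 ± 14.4 TPM. The assembly factor gene sdh6 was lowest, at 25.7 TPM.

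Amino acid synthesis held 2.64 ± 0.0307% of the pool with 68 genes, none silent. The methionine synthase gene met26 had 2329.8, 2368 and 2449.9 TPM, and ilv5, for a step in branched-chain amino acid synthesis, had 2167, 2223 and 2215 TPM. The S-adenosylmethionine synthetase gene sam1 had 1352, 1372 and 1419.6 TPM and the adenosylhomocysteinase gene SPBC8D2.18c had 1274, 1297 and 1336 TPM, so 3 of the leading genes belong to the methionine cycle. The lowest member, arg7, for argininosuccinate lyase, had 29.3 ± 0.332 TPM. Nucleotide synthesis held 0.539 ± 0.0017%, led by gua1 for IMP dehydrogenase at 835 TPM, ura3 at 650.4 TPM and gua2 at 536 TPM.

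Chaperones held 1.88 ± 0.027% of the pool. The Hsp70 gene ssa2 had 3138 ± 71.5 TPM, the ribosome-bound Hsp70 gene sks2 2142 ± 21.0 TPM and hsp90 2023 ± 59.1 TPM. The disaggregase gene hsp104, known for its induction by heat, was the lowest at 49.7 ± 2.96 TPM, and ssa1, a heat-inducible Hsp70 gene, was at 53.6 TPM. Other heat shock genes, named after their values were seen, stood higher, hsp78 at 77.0, hsp16 at 137 and hsp9 at 770 TPM. Oxidant defence held 0.991 ± 0.00928%, most of it in the thioredoxin gene trx1 at 3112 ± 159 TPM and the peroxiredoxin genes tpx1 at 2196 ± 57.0 TPM and pmp20 at 1258 ± 51.2 TPM. Its lowest member was the glutathione transferase gene gst1, at 4.86 TPM.

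The smaller classes also ran over wide ranges. The actin gene act1 had 2083, 2063 and 2076 TPM, ahead of adf1 for cofilin at 1390.3 TPM and cdc3 for profilin at 1159.6 TPM, both actin-binding proteins, while the myosin heavy chain gene myo2 had 17.5 TPM. The plasma membrane proton pump gene pma1 had 1602, 1579 and 1564 TPM, whereas its paralogue pma2 had 0.0865 TPM on 10 counts in all. In cell wall synthesis, ecm33 led with 1727 TPM, before gas1 at 948 TPM and psu1 at 925 TPM, and the spore wall glucan synthase gene bgs2 was lowest at 9.39 TPM. In sterol synthesis, erg25, erg5 and erg6 led with 770.3, 568 and 478 TPM, and the phosphomevalonate kinase gene erg8 had 59.1 TPM. In the cell cycle class, genes for making deoxynucleotides led, suc22 at 368 TPM and cdc22 at 259 TPM, with the replication clamp gene pcn1 at 319 TPM between them and the cyclin gene puc1 lowest at 12.7 TPM.

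Core histones were abundant and unequal. The genes for H3, hht1, hht2 and hht3, summed to 4072 ± 24.1 TPM. Those for H4, hhf1, hhf2 and hhf3, summed to 3132 ± 67.4 TPM. The H2A genes hta1 and hta2 summed to 2139.5 ± 56.2 TPM, and the only H2B gene, htb1, had 1983 ± 5.18 TPM. H2A and H2B sums thus lay close together, while the H3 sum was the highest in every library. The centromeric H3 variant gene cnp1 had 16.8, 18.1 and 17.6 TPM and the H2A variant gene pht1 had 113 TPM.

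Subunits of some complexes were close in level and those of others were not. These complexes were picked as examples after levels had been seen. The 8 genes of the TRiC chaperonin, which folds actin and tubulin, ran from 223 TPM in cct5 to 295 TPM in cct8, a CV of 10.2% across subunits. The 14 genes of the proteasome core ran from 131 TPM in pre8 to 385 TPM in pre1, a CV of 28.1%. The 6 genes of the MCM replicative helicase ran from 15.1 TPM in mcm5 to 69.6 TPM in mcm7, a CV of 52.6%. The annotated transcript of mcm5 is the longest of the 6, 4953 bases, and TPM divides by length. By counts mcm5, with 2605 in all, lay between mcm6 with 2535 and mcm2 with 2859, so its lowest place depends on that length.

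Most subunits of RNA polymerase II alone were lower than those it shares. The 5 subunits shared by RNA polymerases I, II and III, encoded by rpb5, rpb6, rpb8, rpb10 and rpc10, ran from 279 TPM in rpc10 to 391 TPM in rpb10. The 7 subunits of polymerase II alone had a median of 82.3 TPM. The catalytic subunit genes rpb1 and rpb2 had 82.3 and 67.8 TPM, and rpb3 and rpb9 were lower still, at 44.3 and 35.3 TPM. The ranges met only through rpb11 at 352 TPM, within the shared range, as rpb4 had 252 TPM and rpb7 151 TPM. The largest subunit of polymerase III, encoded by rpc1, had 29.2 TPM, the lowest value of the 30 polymerase genes.

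Some of the most abundant messages have no gene symbol. SPAC922.04, annotated as an uncharacterized protein, had 2453, 2352 and 2312 TPM. SPAPB18E9.05c, also uncharacterized, had 2186, 2051 and 2244 TPM. SPAC29A4.02c, annotated as the gamma subunit of the elongation factor that recharges EF-1 alpha, had 1614, 1615 and 1607 TPM. The aldo-keto reductase gene SPAC977.14c had 940.0, 914 and 894 TPM. SPBC460.02c, whose identifier was not found in the annotation used, had 770.2, 748 and 766 TPM. The remaining genes of the 10 highest without a symbol lay between 581 and 755 TPM, apart from the adenosylhomocysteinase gene above. Among protein-coding genes of no class, tma19 led with 3495 ± 56.0 TPM, and the third, ppi1, a prolyl isomerase gene, had 2240.0 ± 49.7 TPM.

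Long non-coding RNA genes, 1517 in all, held 1.94 ± 0.0618% of the pool with a median of 3.31 TPM. A single gene, prl53, annotated as a polyadenylated non-coding RNA, had 4720.2, 4562 and 4631 TPM on 173742 counts in all and ranked 11th. It shares 333 bases with the protein-coding gene SPAC27E2.11c on the same strand in ASM294v3, so reads of the 2 genes can be divided between them, and SPAC27E2.11c had 755 TPM. SPNCRNA.1094 had 1899, 2031 and 1685 TPM and SPNCRNA.1095 had 578, 447 and 448 TPM, and neither overlaps another gene of the tables in that annotation. SPNCRNA.133, at 467 ± 24.4 TPM, lies wholly within fhn1 on the same strand, and fhn1 had 279.8 TPM. SPNCRNA.863, at 375 ± 13.1 TPM, overlaps SPNCRNA.862 on the opposite strand.

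Most non-coding genes were low: 350 of 1517 reached 10 TPM. By name, 634 are antisense to another gene, of which 17 had no count in any library. Of these, 494 have a partner with the same symbol in the tables. The partner stood above its antisense RNA by a median of 8.78-fold over the 476 pairs with both above 0. In 83 pairs, 16.8%, the antisense RNA was higher, in 77 of them in all 3 libraries.

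Among the 35 pairs whose partner is a mating or meiosis gene, the antisense RNA was higher in 21, or 60%, beside 13.5% of the other 459 pairs. The median of the antisense RNA was 9.64 TPM and that of the partner 4.35 TPM in these pairs, beside 3.01 and 34.96 TPM in the others. The examples that follow were named after their values were seen. The antisense RNA of spo4, a sporulation kinase gene, had 49.03, 51.4 and 49.6 TPM while spo4 itself had no count. The antisense RNA of dmc1, the meiotic recombinase gene, had 36.3, 35.5 and 36.4 TPM beside 0.218, 0.218 and 0.355 TPM for dmc1. The antisense RNA of hop1, a gene of the meiotic chromosome axis, had 59.3, 53.2 and 52.9 TPM beside 1.75, 1.45 and 1.17 TPM. The kit marks strand, but whether the counting used it is not stated, and without it the reads of such partners cannot be told apart.

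Structural RNA other than rRNA held 0.458 ± 0.038% of the pool but 0.0288% of the counts, so its levels rest on few reads. The snoRNA snoU14 had 1472, 1219 and 1392 TPM, but on 482 counts in all, because TPM divides by a very short length. By contrast, the hexokinase gene hxk1 had 191 TPM on 16717 counts. The RNA snoR61 had 272 TPM on 1006 counts, and SPNCRNA.906, annotated as small nucleolar RNA U17, had 433 TPM on 2456 counts. Among the ribosomal RNAs, the 28S gene SPRRNA.49 had 517, 948 and 593 TPM and the 18S gene SPRRNA.46 had 405, 843 and 471 TPM. Both were highest in replicate 2. The 5.8S gene SPRRNA.50 had 1031, 1293 and 1331 TPM on 1116 counts.

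The mitochondrial genome was nearly unseen. Of its 36 genes in the tables other than those for rRNA, 26 had no count. Its rRNA genes rnl and rns, sorted here into the rRNA class, had 238 and 141 counts in all. The cytochrome oxidase gene cox2 had 1.05, 1.14 and 3.02 TPM on 14 counts in all, and atp9 had 1.68 TPM on 3 counts. Mitochondrial messages of fission yeast are known to lack poly(A) tails, and libraries made by poly(A) selection give no measure of their level in the cell.

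Levels were spread over bands. At 1000 TPM or more were 210 genes with 52.6% of the pool, 206 of them protein-coding. Between 100 and 1000 TPM were 1251 genes with 31.8%, and between 10 and 100 TPM 3570 genes with 15.1%. The 1905 genes under 10 TPM, silent ones included, shared the small remainder. Protein-coding genes gathered between 10 and 100 TPM, where 61.9% of them stood, while 46.7% of long non-coding RNA genes stood between 1 and 10 TPM.

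**Figure D3:**
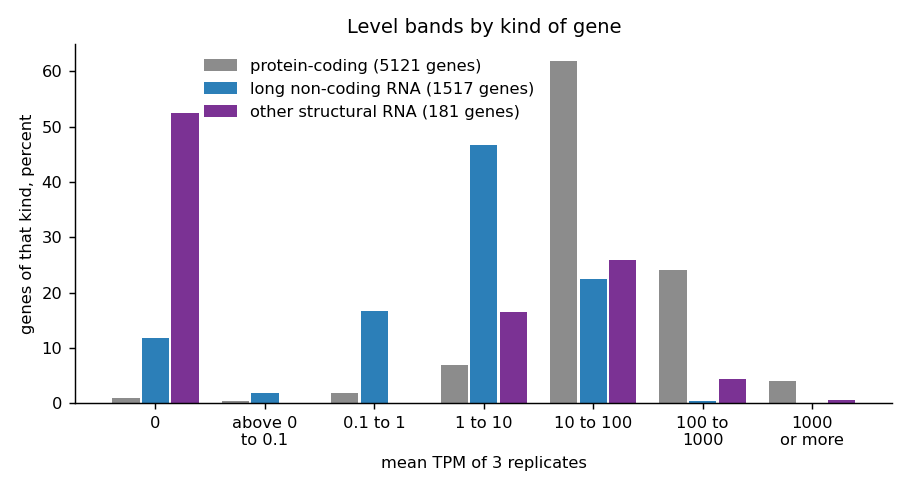
Share of the genes of each kind, in percent, in each band of mean TPM, for protein-coding genes, long non-coding RNA genes and structural RNA genes other than rRNA. Most protein-coding genes lie between 10 and 100 TPM, most non-coding genes lie lower, and 52.5% of structural RNA genes are at 0 in these poly(A)-selected libraries.

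Silent genes, with an estimated count of 0 in all 3 libraries, numbered 380 of 6936, or 5.48%. A count of 0 over these libraries of 34512674 counts in all allows up to 3 counts, or 0.0869 CPM, and that limit covers counting error only. Protein-coding genes supplied 46 of 5121, or 0.898%. Long non-coding RNA genes supplied 179 of 1517, structural RNA genes 95 of 181, rRNA genes 31 of 49 and mitochondrially encoded genes 26 of 36. The libraries were selected for polyadenylated RNA, so a 0 for RNA without a poly(A) tail says nothing of its expression. A further 291 genes had counts in some but not all libraries.

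The silent protein-coding genes were mostly short. Of the 40 with an annotated transcript, 24 were under 500 bases, 60%, beside 4.35% of the 5058 detected ones. Their median transcript length was 435 bases, beside 1692. Another gene lies on the same strand over 9 of the 40, 22.5%, beside 10.4% of detected genes. The list included new15, for a mitochondrial ribosomal protein, with a transcript of 378 bases. The following were named after their values were seen: mzt1, which helps to place microtubule nucleating complexes, and ost5, of the enzyme that attaches sugars to proteins, had transcripts of 259 and 285 bases. Both overlap another gene on the same strand. The RecQ helicase gene tlh1, near a telomere, and the retrotransposon Tf2-8 were silent at full length. Both have near-identical copies to which a counting program can give their reads, and the copy tlh2 had 0.167 TPM.

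Low genes were more frequent near the ends of chromosomes I and II. The outermost 30 protein-coding genes at each of 6 chromosome ends, in the gene order of ASM294v3, were 180 genes, of which 47 were under 1 TPM, 26.1%. Of the other 4918 nuclear genes, 2.176% were. The 4 ends of chromosomes I and II had medians of 3.5, 0.356, 2.19 and 3.24 TPM. Those of chromosome III, which carries the ribosomal DNA at its tips, had 39.2 and 70.2 TPM, so the low levels were those of chromosomes I and II. High genes occurred there too, such as the aldo-keto reductase gene SPAC977.14c at 916 TPM among the first 30 genes of chromosome I. The protein-coding genes of chromosomes I, II and III held 44.2%, 35.9% and 17.1% of the pool. In number they made up 45.6%, 36.5% and 17.9% of such genes.

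The labelled genotype could be checked at ura4. This gene, for a step in uracil synthesis, had no count in any library, and the labelled ura4-D18 is known as a deletion of it. The genes leu1, at 567, 598 and 597 TPM, and ade6, at 94.0, 96.5 and 102 TPM, were present, and a point mutation need not show in a level. Growth markers were all present: tef101 at 3198, 3463 and 3551 TPM, act1 and pma1 as above, the cyclin gene cdc13 at 178, 175 and 181 TPM and the kinase gene cdc2 at 124, 118 and 117 TPM.

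Mating-type genes followed the h- label in part of the list. The M-specific transcription factor gene mat1-Mc had 118, 111 and 104 TPM, and its silent-cassette copy mat3-Mc, which shares its sequence, was listed at 0. The pheromone precursor gene mfm2 had 146, 95.6 and 119 TPM, while mfm1 had 2.29, 0.463 and 0.886 TPM and mfm3 1.35, 5.71 and 3.3 TPM on 16 and 15 counts in all. The P-factor receptor gene mam2, used by h- cells, had 3.5, 3.09 and 3.15 TPM. Of the h+ genes, mat2-Pc had no count, map2, for P-factor, had 1.4, 1.48 and 1.45 TPM and map3, for the M-factor receptor of h+ cells, had 7.86, 8.76 and 6.82 TPM. The map3 values lay above those of mam2 in every library, so the receptor genes did not follow the label.

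Genes for meiosis and sporulation were low, at a median of 3.86 TPM over 13 genes beside 50.7 TPM over all protein-coding genes. Of the 13, 11 were under 10 TPM, beside 10.04% of all protein-coding genes. The highest were isp3, a spore surface protein gene, at 18.9, 16.3 and 20.1 TPM, and mei2, the RNA-binding master regulator of meiosis, at 10.8, 10.9 and 12.1 TPM. Of the other regulators, mei4, a forkhead factor gene, had 3.08, 4.73 and 3.83 TPM and mei3, for the inhibitor that starts meiosis, had 0.817, 0.21 and 0.204 TPM. The recombination genes rec10, rec12 and dmc1 and the cohesin gene rec8 had 6.09, 5.51, 0.263 and 2.95 TPM. The sporulation genes spo6, spo5, meu10 and mde2 had 5.3, 3.86, 1.46 and 0.119 TPM, and spo4 had no count. The wider class of 166 mating and meiosis genes, chosen by name, had a median of 8.03 TPM, though it held mug64, for a membrane-bending protein, at 342 TPM and spo20, for a lipid transfer protein that growing cells need, at 323 TPM.

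Genes known to be repressed by nutrients were spread widely. Of the 23 measured, 8 were under 10 TPM and 7 at 100 TPM or more, with a median of 36.1 TPM. Among all protein-coding genes, 10.04% were under 10 TPM, 24.1% between 100 and 1000 TPM and 4.02% at 1000 TPM or more. The share of the list at 100 TPM or more was thus near the general one, and the share under 10 TPM was larger. Low values stood beside higher ones among the genes of nitrogen, thiamine, phosphate and iron. The gluconeogenic gene fbp1 had 3.03, 3.05 and 3.58 TPM, the invertase gene inv1 2.09, 1.73 and 1.9 TPM, the glycerol dehydrogenase gene gld1 5.66, 4.06 and 3.92 TPM, and the amino acid transporter gene isp5 3.35, 2.9 and 4.39 TPM. Of the others linked to nitrogen, the oligopeptide transporter gene isp4 had 10.9 TPM, and the vacuolar protease gene isp6 and the peptide transporter gene ptr2 had 69.5 and 90.9 TPM. The thiamine-repressed gene nmt1 had 0.0731, 0.512 and 0.28 TPM on 12 counts, while others of the thiamine response were higher, thi2 at 36.1 TPM, thi4 at 30.2 TPM and the acid phosphatase gene pho4 at 143 TPM.

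Phosphate and metal genes ranged as widely. The phosphate genes pho84, for the transporter, and pho1, for the secreted acid phosphatase, had 281, 264 and 249 and 222, 220.3 and 237 TPM, while tgp1, for glycerophosphodiester uptake, had 7.2, 8.19 and 9.2 TPM. The subunits of the copper transporter, ctr4 and ctr5, had 937, 911 and 861 TPM and 639, 548 and 537 TPM, the highest of the list. Iron uptake genes differed between the libraries. The iron permease gene fip1 had 95.5, 115 and 141 TPM, its reductase partner frp1 36.3, 42.2 and 55.5 TPM and the siderophore transporter genes str1 and str3 138, 151 and 171 and 22.3, 32.5 and 45.0 TPM. In all 4, replicate 1 was lowest and replicate 3 highest. The siderophore synthesis genes sib2 and sib1 had 38.2, 38.3 and 46.3 and 9.89, 9.8 and 10.1 TPM, and str2 had 6.71, 6.36 and 7.11 TPM.

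Replicates were close, and their spread followed the level. Over the 5965 genes with a mean of at least 10 counts, the median CV of TPM across the 3 libraries was 4.46%, and 81.1% of genes had a CV under 10%. Split by mean TPM into 10 groups of equal size, the lowest, from 0.167 to 5.46 TPM, had a median CV of 19.1%, and the fifth 4.14%. The highest, from 265 TPM up, had 2.41%. The median CV that counting error alone would give was 14.8% in the lowest, 3.2% in the fifth and 0.973% in the highest. The observed median was thus 1.29 times that of counting in the lowest group and 2.48 times in the highest.

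**Figure D4:**
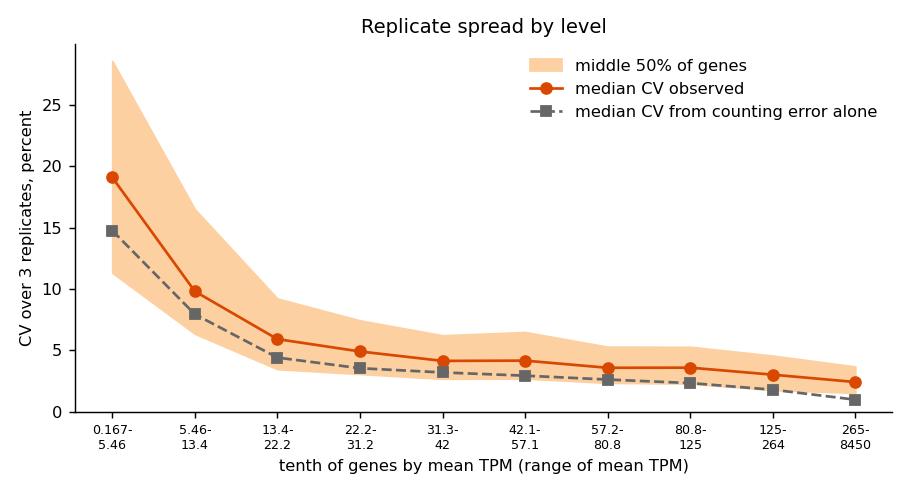
CV of TPM over the 3 replicates in percent for 10 groups of genes of equal size by mean TPM, with the range of mean TPM under each group. The line with circles is the median, the band holds the middle 50% of genes, and the dashed line is the median CV that counting error alone would give. The median falls across the groups to 2.41%, and the distance to the dashed line is relatively largest at the top.

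By class, the smallest median CV was that of amino acid synthesis, 1.92%, followed by tRNA ligases at 2.26% and ribosomal proteins at 2.28%. Glycolysis and fermentation had 4.11%. Long non-coding RNA genes had 13.8%, and the 6 rRNA genes with enough counts, the mitochondrial rnl and rns among them, had 37.6%.

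Among the 1461 genes at 100 TPM or more, 9 had a CV over 20%. The largest was that of the non-coding RNA gene prl32, 57.7%, with 203, 101 and 65.6 TPM. Next were the rRNA genes SPRRNA.46, SPRRNA.45 and SPRRNA.49, at 41.2%, 34.1% and 33.5%, all highest in replicate 2. The pheromone gene mfm2, with a CV of 21.1%, was lowest in that library. The transporter gene SPBPB10D8.05c had 164, 115 and 115 TPM. The kinetochore gene fta6 had 97.7, 111 and 148 TPM on 132 counts in all, and the snoRNA genes S_pombe_snR5 and snoR39b rest on 98 and 27 counts. The short gene ksh1 came next, just under that limit, with 158, 237 and 209 TPM on 351 counts.

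The steadiest gene at this level was hxk1, with 191, 191 and 191 TPM and a CV of 0.0483%. It was followed by atp17, of the ATP synthase, with a CV of 0.0683%, fsf1, for a mitochondrial carrier, with 0.127%, ppx1, for a phosphatase of polyphosphate, with 0.144%, and mud1, for a ubiquitin-binding protein, with 0.144%. With 1461 genes ranked on 3 values each, these extremes describe the 3 libraries and no property of the genes.

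Sequence features varied with level. TPM divides by transcript length, so length enters the ranking itself, and the lengths that follow are a description. Protein-coding genes at 1000 TPM or more encoded a median of 156.5 residues, against 379 over all 5097. The codon share counts codons ending in C or T for phenylalanine, tyrosine, histidine, asparagine, aspartate and cysteine only. Of these codons, a median of 58.4% ended in C at 1000 TPM or more, against 30.9% over all genes. In the band of 100 to 1000 TPM it was 33.1%, and in that of 10 to 100 TPM 29.6%, so among the bands compared the shift was largest in the highest. Without ribosomal protein genes, the 70 remaining genes at 1000 TPM or more had 55.5% and a median of 215 residues. An intron was present in 43.7% of genes in the highest band and 48.4% of all.

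The choice of C was strongest in glycolysis, with a class median of 75.9%, then in ribosomal proteins with 60% and histones with 46.2%. Of the 3742 genes with at least 50 such codons, fba1 had the highest share, 90%, and 15 of the 20 highest stood at 1000 TPM or more. The exceptions, named after their values were seen, included gpd3, with 82.1% C at 147 TPM, and rds1, with 77.3% at 128 TPM. Within glycolysis, the poorly expressed copies eno102 and pdc202 had 29.9% and 37.3%, beside 82.7% in eno101 and 75.9% in pdc101. Across genes the rank correlation of this share with mean TPM was 0.208 and that of protein length with mean TPM -0.231 (Spearman's rho over 5097 genes, which share libraries and are not independent replicates). Without ribosomal protein genes the correlations were 0.144 and -0.188.

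**Figure D5:**
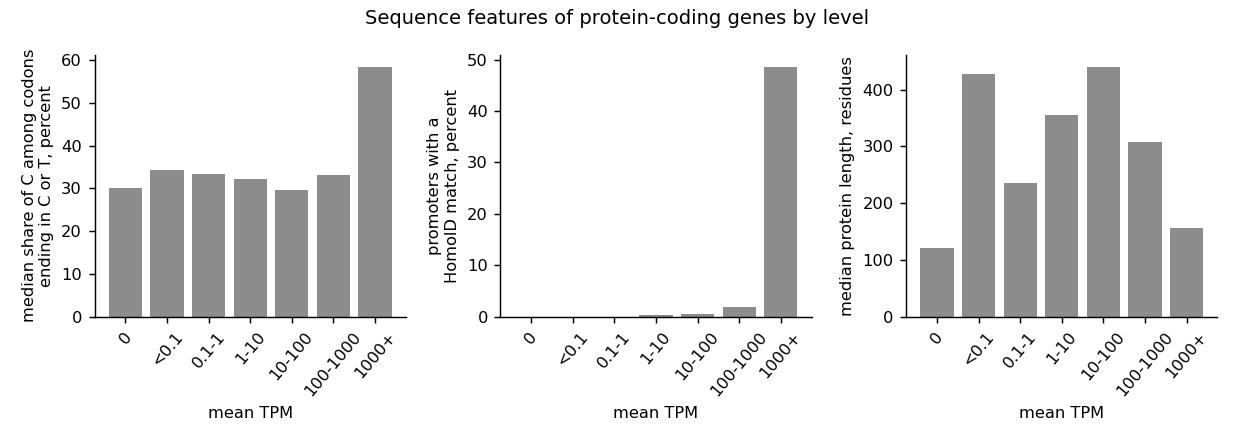
Features of protein-coding genes by band of mean TPM, with bars for the median share of C among codons ending in C or T in percent, the share of promoter windows with a HomolD match in percent, and the median protein length in residues. The codons counted are those for phenylalanine, tyrosine, histidine, asparagine, aspartate and cysteine. The band of 1000 TPM or more reaches 58.4% C and 48.5% of promoters with HomolD, above every lower band. Without ribosomal protein genes, which are not drawn apart, 15.7% of the promoters of that band have HomolD. In protein length the whole band stands at 156.5 residues, above silent genes and below the other bands.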

How the data were processed

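The 3 wt_WT libraries were read from tables of 6936 genes by 12 libraries. The deposited tables hold estimated counts and TPM made by the authors. Salmon 1.9.0 and assembly ASM294v2 are named, per the submitters' processing notes. Most counts are not whole numbers, and Salmon is known to divide reads among similar transcripts, so levels of near-identical genes depend on that division. Identifiers were matched to the ASM294v3 annotation, 6743 by locus tag or synonym and 193 not at all. Classes, lengths, promoters and codons come from that annotation.

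Mean, SD and CV of TPM were taken over the replicates, and class shares are sums of TPM per library. The spread was computed for genes with a mean of at least 10 counts, its steps having been tried on simulated counts, with Python 3.11.15, numpy 2.4.6 and pandas 2.3.3. TMM library sizes for an alternative came from edgeR 4.0.16. Alternatives were the denominator, counts in place of TPM, the median, leaving out each replicate, thresholds of silence, depth, filters and pseudocounts.

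Named genes are the 30 highest (in part as a range), the 3 highest and the lowest of each class (in part), the 10 highest without a symbol, the 5 highest non-coding RNAs, the short lists on genotype, mating, meiosis and nutrients, and the extremes of spread. Members and lists were chosen with earlier results of these data known. A few genes whose annotated product went against a class matched by symbol were moved out of it after levels had been seen. The complexes, antisense pairs and copies of ribosomal protein genes were described after levels had been seen. No test was made, as there is no other group.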

Additional observations from a re-analysis of the deposited data

How the results depend on the processing

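Of 98 recomputed values, 20 moved by more than the spread between replicates or by more than 1.5 times for a count, and 78 did not. With nuclear protein-coding genes as the whole, the shares were 37.6% for ribosomal proteins, 4.27% for translation factors, 2.71% for amino acid synthesis, 1.93% for chaperones, 1.18% for histones, 0.825% for the proteasome and 35.2% for the top 100 genes. As shares of estimated counts, which weight long transcripts, they were 18.0% for ribosomal proteins, 7.23% for glycolysis and fermentation, 6.01% for translation factors, 4.39% for amino acid synthesis, 3.57% for chaperones, 1.52% for long non-coding RNA, 0.642% for histones, 0.878% for the proteasome and 30.01% for the top 100 genes. By counts, 12 of the 30 highest genes stayed among the 30 highest. With at most 3 counts allowed, 85 protein-coding genes were silent, against 46 with none. The median CV of the lowest of 10 groups of genes was 51.1% with no filter on counts and 6.93% with a mean of at least 100 counts, since the filter decides which genes form that group. Depth limits low genes: with each library thinned to 3000000 counts, 526 genes were silent, against 380 at full depth. No paired analysis was possible because a single group was described and no value comes from a test.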
